A study of Mus musculus with 33 samples.

Results

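The comparison concerned single germinal vesicle oocytes at the surrounded nucleolus (SN) stage, the last stage of growth before meiosis resumes, and set 2 Nlrp5 -/- oocytes against 6 Nlrp5 +/+ oocytes. These 8 were taken by genotype and stage from the 33 oocytes of the series. The others include 16 Nlrp5 +/- oocytes, set beside the 8 for single genes below, and null and Nlrp5 +/+ oocytes of an earlier stage. The 2 null oocytes, numbered 7 and 31, are the SN null oocytes that the series holds, and the Nlrp5 +/+ oocytes are numbered 69, 72, 77, 80, 85 and 86. All came from C57BL6/Babr females aged 3 weeks. The null allele was made with CRISPR/Cas9 in zygotes and kept as a line. Most Nlrp5 +/+ controls were not littermates of the null females, so that genotype and litter cannot be told apart. RNA and DNA of each oocyte were separated and the RNA was sequenced. Ovaries were digested with collagenase, and no animal is named for any oocyte, so each genotype was treated as 1 sample. Values below are therefore given without a test, and ranges over oocytes show the spread between cells and not between animals.

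NLRP5, also called MATER, is an oocyte protein of the subcortical maternal complex (SCMC), which is built with TLE6, OOEP, KHDC3 and other maternal proteins. Despite its name, the complex is part of the cytoplasmic lattices, filaments that fill the oocyte cytoplasm and that also need PADI6. Embryos of mothers without it stop dividing at an early cleavage stage. In SN oocytes chromatin has condensed around the nucleolus and transcription has ceased, so their RNA is a store that was made earlier and is drawn down during maturation. A difference at this stage can stem from synthesis during growth or from RNA stability, and these cannot be told apart here. The study assigned the stage after sequencing, from the levels of 105 genes high in non-surrounded nucleolus (NSN) oocytes and 59 genes high in SN oocytes in these same libraries. Genes below that belong to that set are pointed out.

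The null libraries held 5748166 counts on genes in oocyte 7 and 10625944 in oocyte 31, and the Nlrp5 +/+ libraries held between 5138514 and 15579217. The number of genes with a count was 16744 and 17512 in the null oocytes and 16327 to 18136 in the others, and the ranges overlapped. Libraries carried 2 index sequences each. The first index of the null libraries was in no Nlrp5 +/+ library, so first index and genotype cannot be told apart. The second index of oocytes 7 and 31 was in no SN Nlrp5 +/+ library but also in Nlrp5 +/+ libraries of the NSN stage. Oocyte markers were high in all 8 oocytes: 8 genes including Gdf9 and Zp2 summed to 26702 and 24633 CPM (counts scaled to a common library total) in the null oocytes and to 19869 to 27284 in Nlrp5 +/+ oocytes. Markers of ovarian somatic cells were low but not equal. Oocyte 7 held 61.4 CPM of the granulosa cell gene Inha, oocyte 31 held 7.53 and no Nlrp5 +/+ oocyte exceeded 5.78. The 9 theca and interstitial markers summed to 28.9 and 14.6 CPM in the null oocytes against 5.26 to 8.61. Most of the excess came from Hsd3b1, at 16.5 and 6.68 against 0.642 to 1.37. Ptch1 was also above the Nlrp5 +/+ range in both null oocytes, at 2.78 and 2.26 against 0.294 to 1.93. Cyp17a1, Star, Lhcgr and Nr2f2 lay above that range in neither null oocyte, and Cyp11a1, Insl3 and Gli1 in a single one. The whole list of 16 granulosa markers gave 422 and 331 CPM against 320 to 411 in Nlrp5 +/+ oocytes, most of it from Serpine2, at 231 and 198 against 207 to 288, and Cyp19a1, at 40.4 and 68.3 against 56.3 to 82.5. Of the 9 granulosa markers past the filter on level described below, 4 (44.4%, beside 4.38% of all genes) were at least 2-fold higher in the null oocytes. Both null oocytes were above every Nlrp5 +/+ oocyte for 2 of these. Fst and Hsd17b1 passed the filter mainly through oocyte 7, at 7.48 and 14.1 CPM beside at most 0.973 in any other oocyte. The filter thus raised the 44.4%, and it cannot be weighed against the share of all genes. Amhr2, Fst and Amh had 5.05, 7.48 and 1.91 CPM in oocyte 7, at most 0.282 in oocyte 31 and at most 0.2, 0.973 and 0.195 in Nlrp5 +/+ oocytes. The 11 stroma, vessel and blood markers gave 76.4 and 94.8 against 70.3 to 81.1, most of it from Pecam1, at 71.5 and 69.9 against 56.3 to 74.1. Oocyte 31 held the highest levels of the collagen genes Col1a2 and Col3a1 (3.95 and 4.05 CPM) and of the globin genes Hbb-bs and Hba-a1 (7.53 and 3.11), where Nlrp5 +/+ oocytes reached 3.85, 3.21, 5.94 and 2.39. For Dcn, Pdgfra and Col1a1 it held 3.86, 1.13 and 1.22, and the highest Nlrp5 +/+ oocyte 12.2, 3.11 and 1.28. Of the 6 members of this list past the filter, 3 were at least 2-fold higher in the null oocytes, with a median log2 fold change of 0.95 that was 1.51 without oocyte 7 and -0.97 without oocyte 31, and in none were both null oocytes above every Nlrp5 +/+ oocyte. Cdh5, Ptprc and Cd52 had no count in either null oocyte and little or none in the others.

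The 2 null oocytes also stood apart from the Nlrp5 +/+ oocytes in the genes used for staging. Of the 102 staging genes high in NSN oocytes that could be compared, 28 (27.5%) were at least 2-fold higher in the null oocytes and none was lower. Of all genes compared, 4.38% were higher and 6.47% lower. The median log2 fold change of the 102 was 0.64. On a scale shared by all oocytes, normalized counts of these 102 genes summed to 28583 in oocyte 7 and 27842 in oocyte 31, to 17455 to 23656 in SN Nlrp5 +/+ oocytes and to 34031 to 43039 in NSN Nlrp5 +/+ oocytes. The null sums thus lay between the 2 wild-type ranges and overlapped neither. The gap between those ranges follows in part from selection: the study assigned stage from these genes and left out oocytes of unclear stage. This placing is therefore not independent of how the groups were formed. For the 59 staging genes high in SN oocytes the sums were 196162 and 174196, against 182615 to 197383 in SN and 136039 to 161119 in NSN Nlrp5 +/+ oocytes, and no gene was 2-fold apart. NSN Nlrp5 +/+ sums on this shared scale are given below beside the lists with the lowest and highest medians. For the 3 theca and interstitial markers past the filter, the sums were 165 and 99.8 in the null oocytes, 18.2 to 45.2 in SN and 81.1 to 138.6 in NSN Nlrp5 +/+ oocytes. The part of stage in the differences was not tested.

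Nlrp5 itself was 5.37-fold lower in null oocytes. It had 2532 and 2726 normalized read counts in oocytes 7 and 31 (counts divided by a size factor for each library) and 12091 to 17824 (median 13593) in Nlrp5 +/+ oocytes, so the genotypes did not overlap. In NSN oocytes the log2 fold change was -3.09, and over the 16 Nlrp5 +/- oocytes of both stages, on a scale shared by all oocytes, the median was 7978 against 10112 to 14821 in SN Nlrp5 +/+ oocytes and 2105 to 2259.6 in SN null oocytes. The gene lies on chromosome 7 from 23385889 to 23441922 (GRCm38). Reads were counted over the whole gene, and the edit itself is not visible in them. Of the 16 SCMC and oocyte NLRP genes, 1 (6.25%) was at least 2-fold lower, Nlrp5 itself, and none was 2-fold higher. Of all genes compared, 6.47% were lower and 4.38% higher. The list's median was -0.29 beside -0.00 over all genes. The partner genes Tle6, Khdc3, Padi6 and Zbed3 had log2 fold changes of 0.42, 0.47, 0.28 and 0.17, and Ooep had -0.14. Each of these overlapped between the genotypes. Zbed3 is among the staging genes. Nlrp14 had 33276 and 46772 against 42630.2 to 67527 (median 51004), also overlapping.

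Across the genome, 13754 of 35321 genes had a mean normalized count of at least 10 and were compared. Of these, 603 (4.38%) were at least 2-fold higher in null oocytes and 890 (6.47%) at least 2-fold lower. Since 2 cells cannot define an interval, a gene is called separated below when, beyond this fold, both null oocytes lay on the same side of every Nlrp5 +/+ oocyte. That held for 315 genes upwards (2.29%) and 415 downwards (3.02%). Without regard to fold, both null oocytes lay above every Nlrp5 +/+ oocyte for 975 genes (7.09%) and below for 1070 (7.78%). The same comparison in NSN oocytes, with 4 oocytes of each genotype, gave 724 genes 2-fold higher (5.2%) and 449 lower (3.22%), of which 186 (1.33%) and 152 (1.09%) were separated, while 550 (3.95%) lay above and 427 (3.06%) below every Nlrp5 +/+ oocyte. The group sizes differ between the stages, so these counts are not set against each other. The null oocytes also differed between themselves: against the mean of Nlrp5 +/+ oocytes, 2024 genes were 2-fold lower in oocyte 7 and 1095 in oocyte 31, with 440 in both, while 915 and 734 were higher, with 226 in both. With 1 null oocyte left out the separated genes numbered 680 upwards and 789 downwards without oocyte 7, and 838 and 1641 without oocyte 31, and genes 2-fold lower numbered 1122 and 2018.

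Abundant RNAs were lower more often than higher. Among the 4585 genes with a mean of at least 438 normalized counts, 13 (0.284%) were 2-fold higher and 90 (1.96%) 2-fold lower. Among the 4585 least abundant genes, with means up to 81.5, the shares were 10.8% and 12.8%, where counting error is largest. By chromosome, the share of genes 2-fold lower was 9.98% on the X (43 of 431) and 9.83% on chromosome 13. On chromosome 3, 1.69% of genes were 2-fold higher and 8.15% lower, whereas chromosome 11 had 6.14% higher and 3.99% lower. Within 10 Mb of Nlrp5, 14 of 242 genes were higher and 4 lower, with a median of 0.15, beside 48 higher and 41 lower of 799 on the rest of that chromosome.

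**Figure D1:**
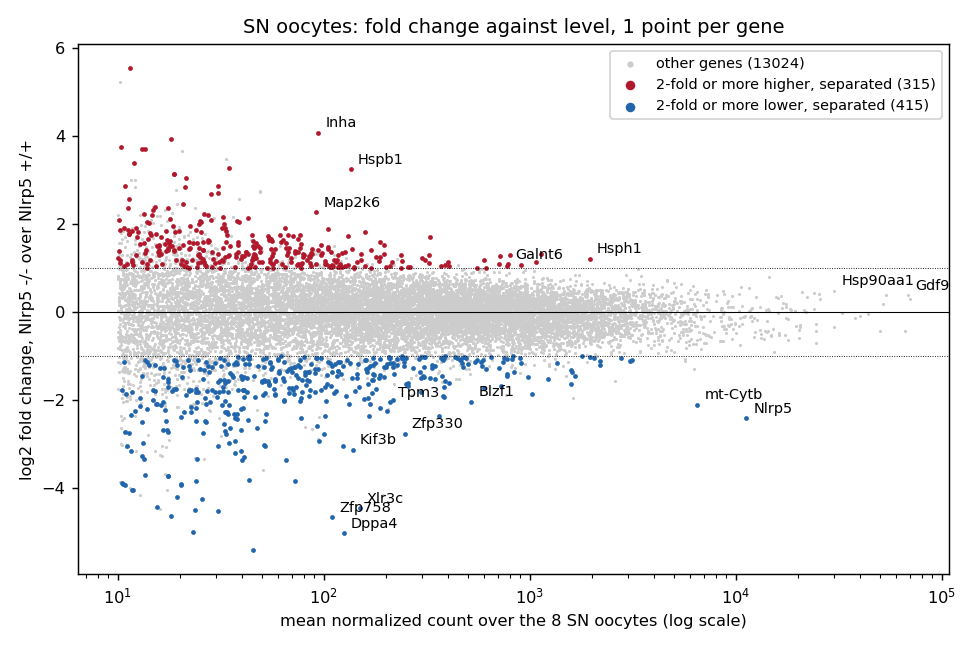
Mean normalized count over the 8 SN oocytes (x axis, log scale) against the log2 fold change of null over Nlrp5 +/+ means (y axis), with 1 point per gene past the filter. Red points are the 315 separated genes at least 2-fold higher and blue points the 415 at least 2-fold lower. Fold changes spread most among genes with few counts.

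The genes were then sorted by function into 67 lists. Beside the shares given above for all genes, the lists that stood lowest by their median were the mitochondrially encoded proteins (-1.88 over 13 genes), the Xlr family of the X chromosome (-0.70, 17 genes), meiotic cohesin and synapsis genes (-0.49, 34 genes), the Tcl1, Oog and Pramel families (-0.42, 21 genes) and the Zfp zinc finger genes (-0.32, 281 genes). The highest medians among lists of 12 or more genes were those of steroid synthesis (0.57, 15 genes), glycolysis (0.46, 26 genes), WNT, Notch and Hedgehog components (0.34, 31 genes), histone genes (0.26, 34 genes), heat shock proteins and co-chaperones (0.25, 42 genes) and cytoplasmic ribosomal proteins (0.25, 86 genes). Most other medians lay within 0.2 of 0 on the log2 scale. Several of these medians depended on 1 null oocyte. Without oocyte 7 the median was -1.34 for the mitochondrially encoded genes, -0.48 for Xlr, -0.17 for cohesin and synapsis, 0.27 for steroid synthesis, 0.18 for glycolysis and 0.07 for ribosomal proteins. Without oocyte 31 these were -2.87, -1.49, -0.77, 0.68, 0.44 and 0.44, and the heat shock median was 0.06. The medians of the Tcl1, Oog and Pramel, Zfp, WNT and histone lists kept to between -0.56 and -0.34, -0.43 and -0.29, 0.21 and 0.46, and 0.22 and 0.25. Glycolysis genes on the shared scale summed to 72820 in oocyte 7 and 55405 in oocyte 31, against 40111 to 55635 in SN and 39143 to 48162 in NSN Nlrp5 +/+ oocytes, so oocyte 7 lay above both ranges. The histone sum of 51261 in oocyte 7 lay inside the SN range of 41869 to 67297 and that of 40212 in oocyte 31 below it, and the NSN range was 33040 to 40001.

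**Figure D2:**
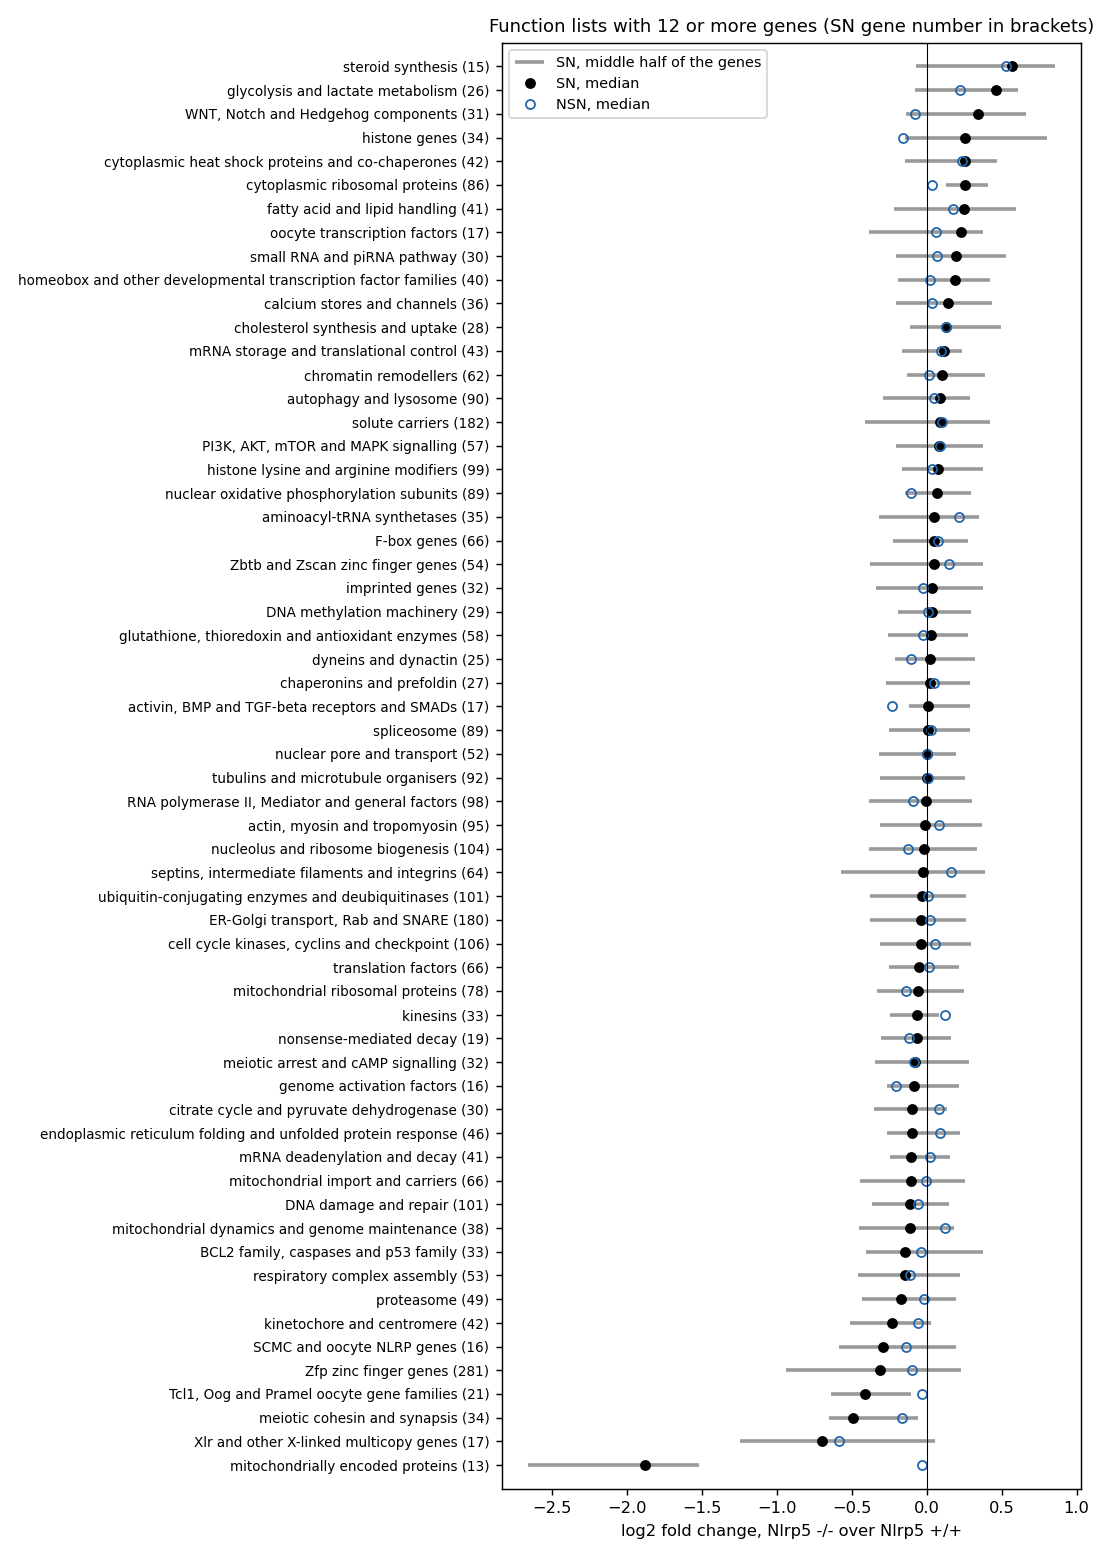
Median log2 fold change (x axis) of each function list with 12 or more genes past the filter (y axis, number of genes in brackets) in SN oocytes (black points, grey bars span the middle of the genes from the lower to the upper quartile) and NSN oocytes (blue circles). The 13 mitochondrially encoded genes lie at -1.88 in SN and -0.03 in NSN oocytes, and the Zfp genes at -0.32 and -0.10.

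Some heat shock proteins, which refold or hold damaged proteins, were higher in both null oocytes. Of 42 heat shock and co-chaperone genes, 3 were 2-fold higher and separated, none was 2-fold lower, and 26 fold changes were positive and 16 negative. The 3 are 7.14% of the list beside 4.38% of all genes. Above every Nlrp5 +/+ oocyte lay 8 (19.05% beside 7.09% of all genes), while 1, Dnajb6, lay below. With a single null oocyte to lie above, the 8 became 20 without oocyte 7 and 13 without oocyte 31. The list's median log2 fold change was 0.23 without oocyte 7 and 0.06 without oocyte 31. The normalized counts of the 42 summed to 91633 and 98380 in null oocytes and to 75367 to 80828 in Nlrp5 +/+ oocytes, whose SD was 2530. On the shared scale the sums were 76180 and 81545 in SN null, 62013 to 66817 in SN Nlrp5 +/+ and 61609 to 83817 in NSN Nlrp5 +/+ oocytes, so the null oocytes lay outside the SN range and inside the NSN range. Hspb1, the small heat shock protein HSP27, had 183 and 642 against 4.83 to 79.2 (median 46.6), a log2 fold change of 3.25 (3.89 without oocyte 7 and 2.08 without oocyte 31). Hspa1b, an inducible HSP70, had 42.2 and 68.1 against 0 to 16.8 (median 9.75), 5.52-fold higher. Its near-identical copy Hspa1a, below the filter on level, had 11.4 and 22.7 against 0 to 4.83 (median 0.978), and reads may have been split between the copies. Both were close to absent in Nlrp5 +/+ oocytes. Hsph1, the HSP110 exchange factor and a gene of the staging set high in NSN oocytes, had 3365 and 3475 against 1165 to 1998 (median 1413), 2.32-fold higher.

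Genes of the cytosolic HSP90 system differed by less than 2-fold. Hsp90aa1 had 40802 and 35884 against 22507 to 32556 (median 27808), and Hsp90ab1 5267 and 5003 against 3281 to 3908 (median 3577). Both genes lay above every Nlrp5 +/+ oocyte in both null oocytes, and the group means were 1.40-fold and 1.45-fold higher. Dnajb1, the HSP40 that feeds clients to HSP70, had 2728 and 2217 against 1271 to 1564 (median 1367), 1.79-fold higher. Stip1, which bridges HSP70 and HSP90, was 1.34-fold and Fkbp5, an HSP90 co-chaperone, 1.27-fold higher, both again outside the Nlrp5 +/+ range. The constitutive Hspa8 had 7366 and 10694 against 4743 to 10368 (median 5965) and overlapped. Of 46 genes of folding and the unfolded protein response, 1 (2.17%) was 2-fold higher and 3 (6.52%) lower, beside 4.38% and 6.47% of all genes. Their median was -0.10. The chaperonins had a median of 0.02. In NSN oocytes, Hspb1, Hspa1b, Hsph1 and Dnajb1 had log2 fold changes of 2.13, 2.35, 0.47 and 0.58.

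Heat shock factor binds inverted repeats of GAA, so the 250 bases before each RefSeq transcript start (GRCm38.p6) were searched for GAANNTTC and TTCNNGAA. Each motif reads the same on both strands, and neighbouring matches may share bases. Either motif occurred in the window of 14.5% of 27025 genes. It occurred in 11 of the 35 listed genes that had a window, and in 3 of the 6 with a window whose null oocytes lay above every Nlrp5 +/+ oocyte, namely Hspb1, Hspa1b and Hsph1. The window of Dnajb6, whose null oocytes lay below every Nlrp5 +/+ oocyte, held both motifs. Of the listed genes past the filter on level, Hspb1 and Hspa1b had the highest fold changes. Their windows (chr5:135887669-135887918, plus strand, and chr17:34959239-34959488, minus strand) are shown from 5′ to 3′ with each match in capitals.
Hspb1: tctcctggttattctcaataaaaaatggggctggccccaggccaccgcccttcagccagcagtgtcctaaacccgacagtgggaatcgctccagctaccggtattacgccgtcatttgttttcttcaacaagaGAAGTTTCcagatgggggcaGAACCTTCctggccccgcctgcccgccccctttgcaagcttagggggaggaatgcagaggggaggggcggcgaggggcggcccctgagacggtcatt
Hspa1b: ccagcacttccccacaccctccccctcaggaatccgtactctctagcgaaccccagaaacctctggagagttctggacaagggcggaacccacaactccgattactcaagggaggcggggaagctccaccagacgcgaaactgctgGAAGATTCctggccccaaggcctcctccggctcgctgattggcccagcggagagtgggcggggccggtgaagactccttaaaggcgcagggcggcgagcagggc
Hspb1 held 2 matches and Hspa1b held 1, and Hsph1 held 1 match of TTCNNGAA. The windows of Dnajb1, Stip1 and Fkbp5 held neither motif. A match describes the letters of the window only.

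**Figure D3:**
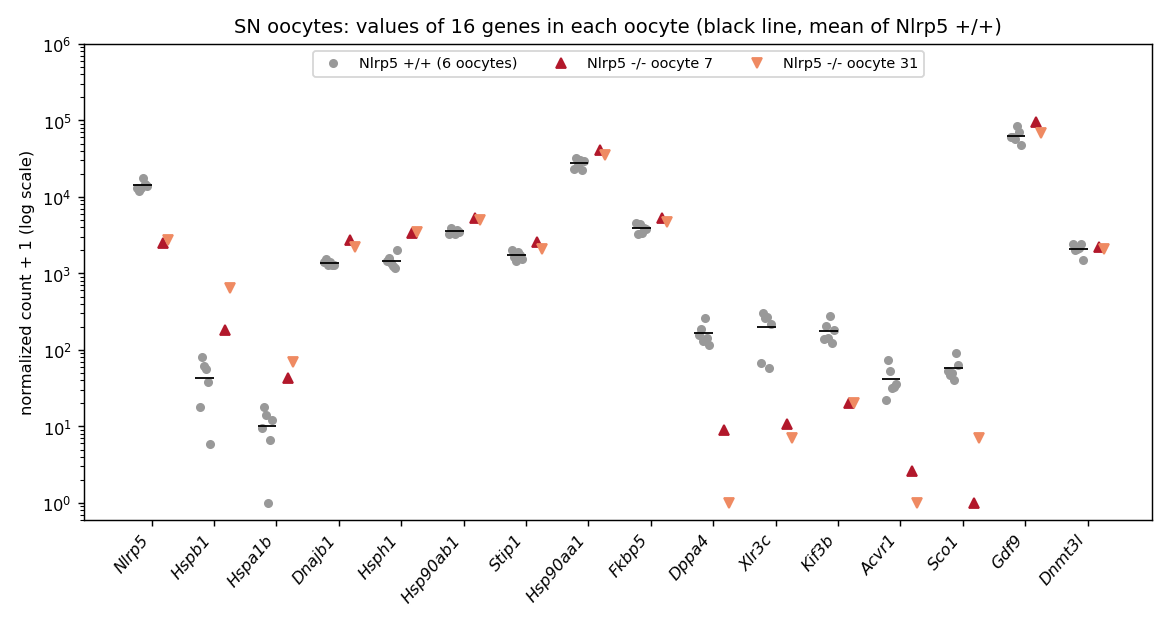
Normalized read count plus 1 (y axis, log scale) of 16 genes (x axis) in each SN oocyte, with Nlrp5 +/+ oocytes as grey points, their mean as a black line, and null oocytes 7 and 31 as red and orange triangles. Both triangles lie above all grey points for Hspb1, Hspa1b, Dnajb1, Hsph1, Hsp90ab1, Stip1, Hsp90aa1 and Fkbp5, and below them for Nlrp5, Dppa4, Xlr3c, Kif3b, Acvr1 and Sco1, while Dnmt3l and Gdf9 overlap.

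The Zfp genes, many of them KRAB zinc finger repressors that silence transposons, had the highest count of 2-fold lower genes among the lists, which is also the longest list. Of 281 past the filter, 64 (22.8%) were 2-fold lower and 12 (4.27%) higher, beside 6.47% and 4.38% of all genes. Of these 29 and 6 were separated, and 50 lay below every Nlrp5 +/+ oocyte against 15 above. In NSN oocytes 26 of 298 (8.72%) were 2-fold lower and 10 (3.36%) higher, beside 3.22% and 5.2% of all genes. By level, 30 of 106 (28.3%) were 2-fold lower among members with a mean up to 81.5, 22 of 112 (19.6%) in the middle range and 12 of 63 (19.05%) among those with at least 438, beside 12.8%, 4.60% and 1.96% of all genes at these levels. Summed over the family, null oocytes held 99004 and 106909 normalized counts and Nlrp5 +/+ oocytes 111145 to 135588. On the shared scale null oocytes had 82308 and 88615, below the SN Nlrp5 +/+ range of 92415 to 111982, and the NSN Nlrp5 +/+ range was 88241 to 111903. Zfp330 had 56.8 and 33.2 against 227 to 414 (median 311), 6.85-fold lower. Zfp512, a chromatin-bound zinc finger protein, had 21.1 and 15.7 against 117 to 213 (median 155), 8.27-fold lower. Both were lower in NSN oocytes as well, with log2 fold changes of -1.16 and -1.50. Zfp12 gave 1 count in the null oocytes together and 181 in the others, a ratio of 45.5 after scaling (95% interval 8.07 to 1809, counting error only), and with the pseudocount of 1 a log2 fold change of -3.93 (-4.89 without oocyte 7). Zfp825 had no count in either null oocyte and 3.60 to 20.4 (median 16.5) in Nlrp5 +/+ oocytes, and was at least 8.19-fold lower with the floor set at 3 counts over the null group. Zfp57, which protects imprints, had 10939.8 and 12442 against 9069 to 14186 (median 11381), overlapping throughout. Reads of close zinc finger paralogs may have been split between copies.

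Part of the family's difference lay in 1 stretch of chromosome 17, which was picked after the values had been seen. In bins of 3 Mb with at least 5 genes past the filter, the median was 1 gene 2-fold lower, and the bin from 21 to 24 Mb of chromosome 17 held 16 of 31, the highest count of the 712 bins. In NSN oocytes, where 3.22% of all genes were 2-fold lower, 7 of 33 were lower there. Over the 18 Zfp genes past the filter between 17064113 and 23599487 (GRCm38), all 18 fold changes were negative, 16 were 2-fold lower, 8 were separated and the median was -1.59. The 20 Zfp genes past the filter there in NSN oocytes had a median of -0.61, with 6 lower and 1 higher. Summed on the shared scale, these genes had 583 counts in oocyte 7 and 1920 in oocyte 31, and Nlrp5 +/+ oocytes had 1887 to 4673 at the SN and 1683 to 4407 at the NSN stage, so only oocyte 7 lay outside. Zfp758 had 1.62 and 7.86 against 24.2 to 307 (median 126), a log2 fold change of -4.67 (-4.05 without oocyte 7 and -5.79 without oocyte 31). Zfp820 had 8.12 and 28.8 against 74.1 to 151 (median 132), a log2 fold change of -2.60 (-1.99 without oocyte 7 and -3.70 without oocyte 31). In NSN oocytes both had log2 fold changes of -0.36. Zfp160 had 43.8 and 129 against 289 to 632 (median 431) and Zfp760 had 17.9 and 29.7 against 83.1 to 172 (median 125), a log2 fold change of -2.37 (-3.34 without oocyte 31) and a log2 fold change of -2.37 respectively. Gm7072, which lies among them, had 11.4 and 0 against 43.5 to 168 (median 80.4), a log2 fold change of -3.85 (-6.69 without oocyte 7 and -2.96 without oocyte 31). Zfp959, on the same chromosome but outside the stretch, had 14.6 and 0 against 21.3 to 113 (median 96.7), a log2 fold change of -3.37 (-6.54 without oocyte 7 and -2.47 without oocyte 31). In each of these genes the null oocytes lay below every Nlrp5 +/+ oocyte. On other chromosomes with at least 15 Zfp genes past the filter, the counts 2-fold lower were 9 of 24 on chromosome 13, 7 of 16 on chromosome 4, 4 of 15 on chromosome 5, 4 of 21 on chromosome 8, 3 of 19 on chromosome 2 and 6 of 67 on chromosome 7.

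**Figure D4:**
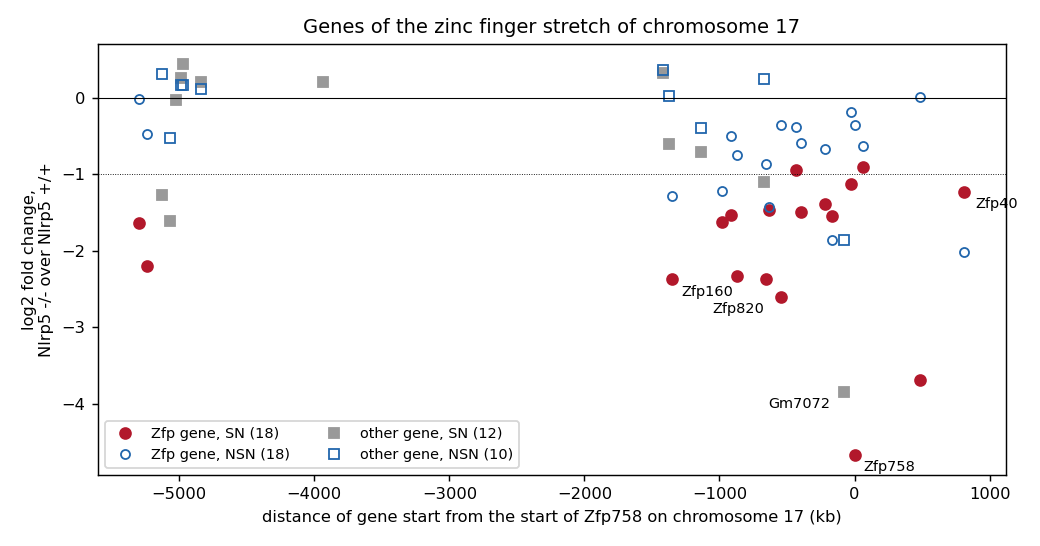
Log2 fold change (y axis) of the genes past the filter in the stretch of chromosome 17, by the distance of each gene's start from that of Zfp758 in kb (x axis). Filled circles are Zfp genes and grey squares other genes in SN oocytes, open symbols show NSN oocytes, and the dotted line marks 2-fold; all 18 filled circles lie below 0.

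Shares of all genes to read the next counts against are 6.47% 2-fold lower, 4.38% 2-fold higher, 7.09% above and 7.78% below every Nlrp5 +/+ oocyte. In the BTB and SCAN zinc finger families, 8 of 54 genes were 2-fold lower and 2 higher, with a median of 0.05. Zbtb6 had 1.62 and 13.97 against 14.5 to 96.5 (median 39.3), a log2 fold change of -2.32 (-1.56 without oocyte 7 and -4.06 without oocyte 31). Zkscan1 had 144 and 116 against 243 to 494 (median 352), 2.76-fold lower. Both lay below every Nlrp5 +/+ oocyte. Of 99 histone lysine and arginine modifiers, 12 (12.1%) lay above every Nlrp5 +/+ oocyte and 0 below, with 5 (5.05%) 2-fold higher and a median of 0.08. Cbx7, a reader of Polycomb marks, had 77.9 and 153 against 19.996 to 59.99 (median 32.7), 3.18-fold higher.

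Genes of the mitochondrial genome were lower in null oocytes: all 13 that encode respiratory subunits were 2-fold lower by the means of both null oocytes, with a median of -1.88. Without oocyte 7 this held for 9, with a median of -1.34, and without oocyte 31 for 13, with a median of -2.87. Their sum was 6223 and 9612 normalized counts in oocytes 7 and 31 and 9927 to 35545 (median 24967) in Nlrp5 +/+ oocytes. The lowest Nlrp5 +/+ value, in oocyte 80, was close to that of oocyte 31, and 3 of the 13 genes were separated. On the shared scale NSN Nlrp5 +/+ oocytes held 14622 to 30136, and the SN null oocytes 5174 and 7967. mt-Cytb, a subunit of complex III, had 1909 and 1819 against 4242 to 10761 (median 8205), 4.33-fold lower. mt-Nd4 and mt-Nd5, of complex I, had 583 and 436 against 763 to 1989 (median 1424) and 894 and 1316 against 1379 to 3229 (median 2607). mt-Nd5 passed 2-fold in the mean of both null oocytes but had -0.96 without oocyte 7. mt-Co1, of complex IV, had 1996 and 4022 against 2616 to 12669 (median 7593), a log2 fold change of -1.30 (-0.88 without oocyte 7 and -1.89 without oocyte 31), and overlapped. Mitochondrial transcripts took 0.0667% and 0.104% of all counts in null oocytes and 0.101% to 0.373% in Nlrp5 +/+ oocytes. In NSN oocytes the 13 genes had a median of -0.03. Fewer mitochondria, less RNA per mitochondrion and differences between single libraries cannot be told apart in these counts.

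**Figure D5:**
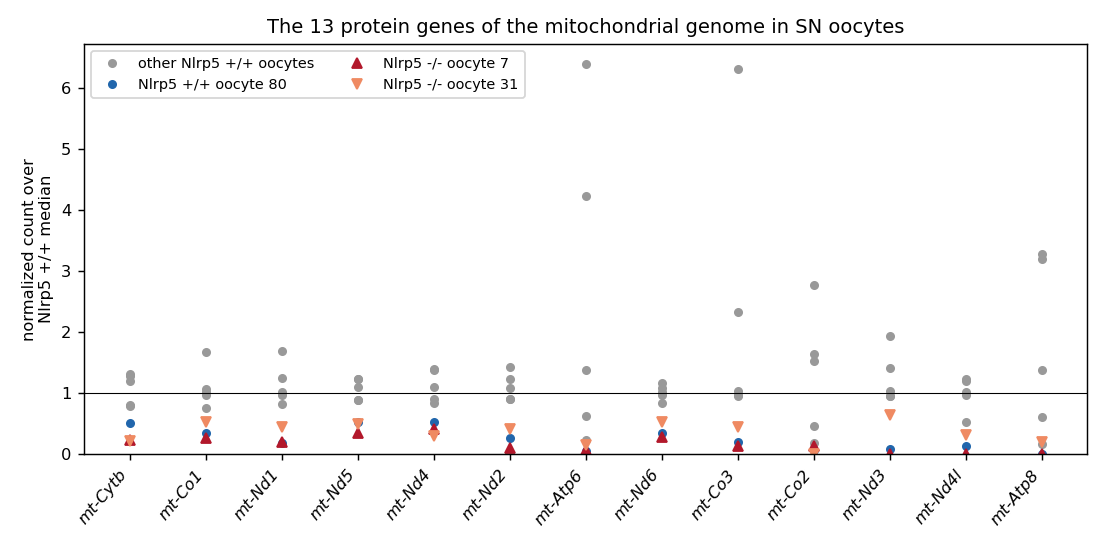
Normalized count of each mitochondrially encoded protein gene (x axis) divided by its Nlrp5 +/+ median (y axis, line at 1) in each SN oocyte. Null oocytes 7 and 31 are red and orange triangles, and Nlrp5 +/+ oocyte 80, whose sum was the lowest of its genotype at 9927, is blue; all triangles lie below 1.

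Of 89 nuclear genes for subunits of oxidative phosphorylation, 0 were 2-fold lower and 3 higher, with a median of 0.07. Atp5d, a subunit of ATP synthase, had 526 and 523 against 146 to 356 (median 189), 2.35-fold higher. Among 53 assembly factors, Sco1, the copper chaperone of cytochrome oxidase, had 0 and 6.11 against 39.6 to 90.8 (median 50.6), a log2 fold change of -3.84 (-3.04 without oocyte 7 and -5.84 without oocyte 31). Tmem126a, an assembly factor of complex I, had 94.1 and 100.4 against 149 to 419 (median 317), 3.10-fold lower. Cox11, another copper chaperone, was higher, at 21.1 and 67.2 against 4.83 to 18.9 (median 11.5), a log2 fold change of 1.84 (2.44 without oocyte 7 and 0.80 without oocyte 31). Sco1 starts next to Adprm on chromosome 11, and Adprm, a manganese-dependent phosphatase of ADP-ribose, had 122 and 120.5 against 313 to 589.6 (median 471), 3.85-fold lower. In the import and carrier list, 8 of 66 (12.1%, beside 6.47% of all genes) were 2-fold lower and 1 (1.52%, beside 4.38%) higher. Timm8a1, a chaperone of the intermembrane space, had 27.6 and 34.04 against 76.9 to 151 (median 113), 3.52-fold lower, and the carrier Slc25a14 99.01 and 141 against 221 to 339.5 (median 290.5).

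Dppa4, a chromatin protein of pluripotent cells and a regulator of the early zygotic gene Dux, had the largest fold change of genes with a mean of at least 50. It had 8.12 and 0 against 115 to 257 (median 149.5), a log2 fold change of -5.04 (-7.48 without oocyte 7 and -4.19 without oocyte 31). The NSN value was -5.005. The list of genome activation factors had 1 of 16 2-fold lower, Dppa4 itself, and a median of -0.08. The maternal homeobox genes Obox1, Obox2 and Obox5 lay below every Nlrp5 +/+ oocyte in both null oocytes, with group means 1.48, 1.44 and 1.40-fold lower. Obox5, for example, had 7197 and 6647 against 8437 to 11014 (median 9245). The Obox genes overlap or closely resemble each other, and reads may have been split. Of 21 genes of the Tcl1, Oog and Pramel families, which are copied and expressed mainly in oocytes, none was 2-fold apart, yet 17 fold changes were negative and the sum was 121805 and 123675 in null oocytes against 143161 to 168898. On the shared scale, the null sums of 101264 and 102512 lay below the SN Nlrp5 +/+ range of 118880 to 138526 and inside the NSN range of 91219 to 109668. Oog2 had 2444 and 2897 against 3992 to 5317 (median 4308), 1.68-fold lower, and Oosp3, a staging gene high in SN oocytes, 6945 and 6777 against 9868 to 14214 (median 11236).

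On the X chromosome, 8 of 17 Xlr and related genes past the filter (47.1%, beside 6.47% of all genes) were 2-fold lower. Of these, 3 were separated (17.6% of the list, beside 3.02% of all genes), and none was higher. Xlr genes are multicopy relatives of the synaptonemal complex protein SYCP3. Xlr3c had 9.74 and 6.11 against 57.5 to 304 (median 240.4), 22.1-fold lower. Xlr5b had 8.12 and 0 against 15.6 to 35.99 (median 26.6) and Xlr4b 115 and 186 against 212 to 577 (median 333), a log2 fold change of -2.40 (-4.85 without oocyte 7 and -1.56 without oocyte 31) and a log2 fold change of -1.25 (-0.94 without oocyte 7). Xlr3a, the most abundant, had 484 and 1459 against 1219.9 to 1899.7 (median 1542), low in oocyte 7 but not in oocyte 31. Without oocyte 7 the list had 4 genes 2-fold lower and a median of -0.48, and without oocyte 31 it had 9 and -1.49. Its shared-scale sums were 2630.0 and 4801 in null oocytes, 4118 to 6036 in SN and 3892 to 7386 in NSN Nlrp5 +/+ oocytes, so that only oocyte 7 lay outside. In NSN oocytes 5 of 15 were 2-fold lower beside 3.22% of all genes, with a median of -0.58. The copies share sequence, and reads may have been split between them.

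Few meiotic chromosome genes reached 2-fold. Of 34 genes of cohesin, condensin and synapsis, 2 (5.88%) were 2-fold lower, under the 6.47% of all genes, while 27 fold changes were negative and 8 (23.5% beside 7.78% of all genes) lay below every Nlrp5 +/+ oocyte and none above. The median of -0.49 was -0.17 without oocyte 7 and -0.77 without oocyte 31. Their sum was 24081 in oocyte 7, 34187 in oocyte 31 and 32342 to 44928 in Nlrp5 +/+ oocytes, so that only oocyte 7 lay outside. Summed on the shared scale they had 20020 and 28336, against 26892 to 37308 in SN and 22982 to 36392 in NSN Nlrp5 +/+ oocytes. Tex12, of the synaptonemal complex, had 51.9 and 73.3 against 84.1 to 169.9 (median 155), a log2 fold change of -1.13 (-0.90 without oocyte 7). Sgo2b had 50.3 and 123 against 129 to 269.7 (median 211), a log2 fold change of -1.22 (-0.71 without oocyte 7 and -1.99 without oocyte 31). Ncapg, a condensin subunit, had 1849 and 4127 against 4287 to 6291 (median 5762). The cohesin subunit Smc3 and its release factor Wapl had log2 fold changes of -0.55 and -0.50, both separated in rank without reaching 2-fold. Of 42 kinetochore genes, 3 (7.14%) were 2-fold lower and 1 (2.38%) higher, close to or under the 6.47% and 4.38% of all genes, and 8 (19.05%) lay below every Nlrp5 +/+ oocyte beside 7.78%. Among 92 tubulins and microtubule organisers, 13 (14.1%) lay below and 9 (9.78%) above, beside 7.78% and 7.09%. Nedd1, which brings gamma-tubulin to the spindle, had 665 and 828 against 1405 to 2168 (median 1916), 2.50-fold lower. Cep70, a centrosomal protein, had 199.6 and 491 against 820.5 to 1021 (median 908), a log2 fold change of -1.42 (-0.91 without oocyte 7 and -2.21 without oocyte 31). In NSN oocytes Nedd1 and Cep70 had values of -0.04 and -0.12. Of checkpoint and cell cycle genes, 2 were 2-fold higher and 2 lower of 106 (1.89% each, beside 4.38% and 6.47% of all genes).

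Single genes of the cytoskeleton and of trafficking differed strongly within lists whose medians lay near 0. Kif3b, a kinesin-2 motor subunit, had 19.5 and 19.204 against 121 to 275 (median 164), 8.78-fold lower, within a list of 33 kinesins of median -0.06. Tpm3, a tropomyosin that coats actin filaments, had 60.1 and 63.7 against 179 to 294 (median 273), 4.15-fold lower. Itgb4, an integrin of hemidesmosomes, had 9.74 and 0 against 18.5 to 99.7 (median 47.9996), a log2 fold change of -3.16 (-5.82 without oocyte 7 and -2.29 without oocyte 31). All 3 were also lower in NSN oocytes, at -1.06, -1.67 and -3.45. Blzf1, a golgin partner at the Golgi, had 133 and 177 against 539 to 806 (median 627), 4.12-fold lower, and on the scale shared by all oocytes 15 of the 16 Nlrp5 +/- oocytes lay below every SN Nlrp5 +/+ oocyte. The SNARE proteins Stx16 and Stx7 had 11.4 and 23.6 against 43.5 to 168 (median 101) and 22.7 and 55.9 against 111 to 171 (median 138), a log2 fold change of -2.41 and a log2 fold change of -1.81 (-2.57 without oocyte 31). Of 180 genes of ER-Golgi transport, 6 were 2-fold lower, 7 higher, and 19 (10.6%, beside 7.78% of all genes) lay below every Nlrp5 +/+ oocyte and 11 (6.11%, beside 7.09%) above.

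Receptors and mediators of activin and BMP signalling, through which oocytes and granulosa cells exchange signals, differed gene by gene. Acvr1, a type I BMP receptor, gave 1 count in the null oocytes together and 255 in the others, a ratio of 64.2 after scaling (95% interval 11.4 to 2540, counting error only), and with the pseudocount of 1 a log2 fold change of -4.52 (-5.49 without oocyte 7). Acvr2a, a type II receptor, had 40.6 and 33.2 against 64.3 to 181 (median 135), 3.27-fold lower. Smad5, which BMP receptors phosphorylate, was higher, at 104 and 185 against 21.01 to 86.8 (median 59.5), a log2 fold change of 1.31 (0.83 without oocyte 31). The list median was 0.01 over 17 genes. The ligands made by the oocyte overlapped: Gdf9 had 96329 and 69428 against 47261 to 85022 (median 60835) and Bmp15 34623 and 36484 against 32038 to 46012 (median 40007). Among 31 WNT, Notch and Hedgehog genes, 5 were 2-fold higher and 1 lower, and 9 lay above every Nlrp5 +/+ oocyte. Their sums on the shared scale, 17351 and 16479, exceeded the SN Nlrp5 +/+ range of 11398 to 16274 and lay inside the NSN range of 14007 to 17796. Gli2, a transcription factor of the Hedgehog pathway, had 304 and 450.4 against 37.7 to 215 (median 114), 3.02-fold higher. The receptor Notch1 had 14.6 and 0.873 against 29.04 to 50.9 (median 44.5), a log2 fold change of -2.29 (-4.56 without oocyte 7 and -1.45 without oocyte 31). Wnt5a, a secreted ligand, had 19.5 and 71.6 against 8.47 to 18.5 (median 14.3), a log2 fold change of 1.59 (2.24 without oocyte 7 and 0.40 without oocyte 31). Map2k6, a kinase upstream of p38, had 117 and 338 against 14.5 to 94.8 (median 37.2), a log2 fold change of 2.27 (1.31 without oocyte 31).

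Cytoplasmic ribosomal protein genes had a median of 0.25, with 72 of 86 fold changes positive, 2 genes 2-fold higher and none lower, but their sums of 146345 and 112835 lay within the Nlrp5 +/+ range of 70982 to 169923. Their shared-scale sums were 121665 and 93526, and the SN and NSN Nlrp5 +/+ ranges were 58409 to 141288 and 76604 to 90807. Rps28 had 365 and 357 against 115 to 229 (median 169.5), 2.19-fold higher. Of 104 genes of ribosome biogenesis, 15 (14.4%) lay below every Nlrp5 +/+ oocyte and 7 (6.73%) above, beside 7.78% and 7.09% of all genes, and 4 were 2-fold higher and 4 lower (3.85% each), under the shares of all genes. Ubtf, an RNA polymerase I factor and a staging gene high in NSN oocytes, had 144 and 127 against 37.7 to 72.9 (median 48.7), 2.60-fold higher, while Nol7, a nucleolar protein, had 48.7 and 65.5 against 122 to 209 (median 159), 2.84-fold lower. Rars, the arginyl-tRNA synthetase, had 652 and 784 against 1297 to 2975 (median 2023), 2.76-fold lower. Gtf2a2, a subunit of the general transcription factor TFIIA, had 226 and 460.0 against 797 to 1728 (median 1306), a log2 fold change of -1.87 (-2.48 without oocyte 31). Pabpc1, the somatic poly(A)-binding protein, had 177 and 182 against 33.4 to 124 (median 58.1), 2.53-fold higher. Btg4, an adaptor of the deadenylase that clears maternal mRNA, had 9312 and 10484 against 13879 to 16974 (median 14849.9), 1.52-fold lower. Of 49 proteasome genes, 8 (16.3%) lay below every Nlrp5 +/+ oocyte and 3 (6.12%) above, and 1 was 2-fold lower. Psma6, a core subunit, had 1084 and 1267 against 1799 to 3248 (median 2619), a log2 fold change of -1.11 (-0.996 without oocyte 7), whereas Psmf1, the PI31 regulator, had 5545 and 5133 against 2056 to 3707 (median 2421), 1.97-fold higher.

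Of 15 genes of steroid synthesis, 3 (20%) were 2-fold higher and 4 lay above every Nlrp5 +/+ oocyte. Hsd17b1, 1 of the 3, passed the filter on level mainly through oocyte 7. Of 26 glycolysis genes, 2 (7.69%) were 2-fold higher and 1 (3.85%) lay above, and of 30 genes of the citrate cycle 0 were 2-fold higher and 2 lower, beside 4.38% higher, 6.47% lower and 7.09% above of all genes. Some of the genes below are also expressed by the somatic cells whose markers are given above. The 15 genes of steroid synthesis summed on the shared scale to 4001 and 3738, above the SN Nlrp5 +/+ range of 2893 to 3508, and oocyte 31 lay inside the NSN range of 3166 to 3957. Hsd3b1, a dehydrogenase of steroid synthesis and 1 of the theca markers, had 154 and 61.98 against 6.18 to 13.5 (median 11.5), a log2 fold change of 3.27 (2.49 without oocyte 7). All 16 Nlrp5 +/- oocytes lay above every SN Nlrp5 +/+ oocyte for this gene. Hsd17b1 had 131 and 6.11 against 0 to 9.43 (median 4.45), a log2 fold change of 3.66 (0.38 without oocyte 7 and 4.58 without oocyte 31), and Inha, an inhibin subunit, 573 and 69.8 against 0 to 53.99 (median 8.16), a log2 fold change of 4.08 (1.91 without oocyte 7 and 4.91 without oocyte 31). Ldha, lactate dehydrogenase, had 187 and 23.6 against 3.60 to 24.5 (median 21.4), a log2 fold change of 2.58 (0.48 without oocyte 7 and 3.40 without oocyte 31). Gja1, the connexin of granulosa cells, had 133 and 25.3 against 2.90 to 24.5 (median 6.32), a log2 fold change of 2.69 (1.09 without oocyte 7 and 3.43 without oocyte 31). For Hsd17b1, Inha, Ldha and Gja1 the difference lay mostly in oocyte 7, the oocyte with the most Inha. For the next genes both null oocytes lay above every Nlrp5 +/+ oocyte. Pmvk, of the mevalonate pathway, had 55.2 and 60.2 against 0 to 13.2 (median 4.58), 8.79-fold higher. Gapdh had 107 and 79.4 against 32.4 to 51.5 (median 45.3), a log2 fold change of 1.08 (0.86 without oocyte 7). Gpat2, a staging gene high in NSN oocytes with a role in piRNA biogenesis, had 146 and 145 against 12.6 to 58.8 (median 38.02), 3.74-fold higher. Impdh2, of guanine nucleotide synthesis, had 90.9 and 137 against 19.6 to 55.2 (median 34.9), and the zinc exporter Slc30a2 304 and 251 against 46.9 to 107 (median 88.1), 3.31 and 3.30-fold higher. The part of somatic RNA in these differences was not tested.

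DNA methylation genes showed few differences. Of 29, 1 was 2-fold lower and 0 higher, with a median of 0.03. Dnmt3l, the cofactor of de novo methylation in oocytes, had 2212 and 2078 against 1519.7 to 2408 (median 2114). Uhrf1 had 16645 and 9059.9 against 7832 to 11901 (median 9764) and Dnmt1 30889.6 and 28917 against 18801 to 29430.2 (median 24323), with overlap for each. Kdm2b had 3124 and 1987 against 2102 to 2849 (median 2741). Imprinted genes gave 2 higher and 2 lower of 32, beside 4.38% higher and 6.47% lower of all genes. DNA damage and repair genes counted 0 higher and 2 lower of 101, and the BCL2, caspase and p53 families 0 and 2 of 33. Solute carriers gave 15 higher and 15 lower of 182.

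Further genes had large and separated differences. Gm14216 had 230.5 and 232 against 41.7 to 99.96 (median 51.3), 3.67-fold higher, with a value of 1.79 in NSN oocytes. Tmem159, a lipid droplet protein, had 297 and 386 against 15.9 to 176 (median 110.1), 3.51-fold higher. Klhl21, a cullin-3 adaptor that acts in cytokinesis, had 144 and 179.8 against 20.3 to 92.4 (median 37.5), 3.35-fold higher, and -0.02 in NSN oocytes. Ust, a sulfotransferase of chondroitin and dermatan sulfate, had 816 and 553 against 25.5 to 325 (median 241), 3.25-fold higher. The keratin Krt25 and the sodium channel subunit Scnn1b were 3.35 and 3.20-fold higher, at 112 and 148 and at 102 and 123, where Nlrp5 +/+ oocytes reached at most 70.8 and 58.5. Simc1, a SUMO-binding protein and a staging gene high in NSN oocytes, had 101 and 198 against 20.3 to 73.2 (median 46.1). Ccne1, cyclin E1 and also such a staging gene, had 136 and 56.7 against 9.43 to 42.6 (median 31.5), a log2 fold change of 1.76 (1.01 without oocyte 7).

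On the lower side, Thegl, a testis-type protein of no assigned list, had 8.12 and 21.8 against 84.7 to 198 (median 117), a log2 fold change of -2.94 (-3.75 without oocyte 31). Nxt2, a cofactor of mRNA export, had 6.49 and 7.86 against 10.6 to 138 (median 64.2), 8.31-fold lower, and 0.33 in NSN oocytes. Tex16, an X-linked gene, had 14.6 and 6.98 against 25.1 to 133 (median 38.8), 5.64-fold lower, and 0.30 in NSN oocytes. Gm3604, a zinc finger gene model on chromosome 13, had 8.12 and 27.1 against 28.03 to 236 (median 115), a log2 fold change of -2.78 (-2.19 without oocyte 7 and -3.81 without oocyte 31). Sppl2a, an intramembrane protease, had 4.87 and 4.36 against 5.87 to 53.99 (median 30.2), 5.56-fold lower, and Txndc12, a thioredoxin of the endoplasmic reticulum, 48.7 and 77.7 against 102 to 212 (median 180.4), 2.69-fold lower. These last 2 had values of -3.30 and -2.36 in NSN oocytes. Satb1, a chromatin organiser, had 579 and 588 against 734 to 1559.7 (median 1184), 1.92-fold lower. H3f3b, which encodes the replacement histone H3.3, had 3590.3 and 5870.3 against 5979 to 8892 (median 8018), 1.64-fold lower. Spin1, a reader of histone methylation and an abundant maternal RNA, had 40984 and 64882 against 64539 to 79679 (median 70834) and overlapped in oocyte 31.

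Some abundant genes were higher in both null oocytes by less than 2-fold or little more. Bub1b, a spindle checkpoint kinase, had 15251 and 12862 against 7345 to 12787 (median 9195), 1.47-fold higher. Galnt6, which starts O-glycan chains, had 1571 and 1044 against 422 to 816 (median 618), a log2 fold change of 1.09 (0.77 without oocyte 7). Pgs1, of phosphatidylglycerol synthesis in mitochondria, had 4425 and 5823 against 2229 to 3742 (median 2864), 1.76-fold higher. In NSN oocytes these genes had log2 fold changes of 0.64, 1.27 and 0.95.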

How the data were processed

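RNA of single oocytes was sequenced after separation from DNA (scM&T-seq). Per the study's methods, the authors used Trim Galore for trimming and HISAT2 for alignment, left out shallow libraries and screened the rest in SeqMonk. The methods do not name the tool that counted reads on genes. The file headers and the submitters' processing notes name GRCm38 and the methods GRCm39; coordinates are given as in the file, as GRCm38. The deposited table holds raw counts per gene and oocyte, without normalization. Strand and counting settings are not given in the sources used here. Tables of the authors' own comparisons (fold changes and p-values by DESeq2) and a table of reads per library were not used.

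The table has 35373 entries, of which 52 that repeat a gene were dropped. All columns belonged to labelled oocytes (0 to no sample). Genotype came from the labels and stage from the study. Counts were divided by size factors (median of ratios over the 8 oocytes), averaged over oocytes, and compared as log2((mean + 1) / (mean + 1)) for genes with a mean of at least 10. Since no animal is named, each group was 1 sample, so no p-value was computed. A difference was counted from 2-fold. Differences between libraries rest on 5138514 to 15579217 counts each, and intervals and floors cover counting error only.

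The genes named were Nlrp5, the 15 largest separated differences in each direction with a mean of at least 50, up to 4 separated and 3 abundant members of each of the 67 lists, genes that the study names, and markers of other cell types. Dnajb1, Dnajb6, Fkbp5, Hsp90ab1, Stip1, Oog2, Oosp3, Smc3, Wapl, Zfp160, Zfp760 and Zfp994 were chosen after their values had been seen, as were the 3-Mb bins, the chromosome 17 stretch and the sums of staging genes and lists on the shared scale. The oocytes and lists were chosen with earlier results of these data known. The script was tested on simulated counts. Alternatives were total-count and TMM scaling, medians or pooled sums, a pseudocount of 5, filters at 1 count and at a mean of 100, lists without staging genes, and leaving out each oocyte. Promoters came from RefSeq (GRCm38.p6). All steps ran in Python 3.11.15, with scipy 1.17.1, pandas 2.3.3 and numpy 2.4.6, and figures were drawn by matplotlib 3.10.9.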

Additional observations from a re-analysis of the deposited data

Results flagged for a closer look

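Of 126 named genes and lists checked for a Nlrp5 +/+ oocyte far from the other 5, 3 had one, by a rule that picks out about 1 in 20 groups by chance. Thegl had 198 normalized counts in oocyte 85 and 84.7 to 122.6 in the others. Zfp994, in the zinc finger stretch of chromosome 17, had 124 in oocyte 77 and 37.7 to 60.6 in the others. Tpm3 had 179 in oocyte 72 and 255 to 294 in the others. For all 3 genes both null oocytes lay below every Nlrp5 +/+ oocyte, the distant one included.

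Myzap, a gene of junctions and the actin cytoskeleton, lay on opposite sides at the 2 stages. It had 143 normalized counts in each of the 2 SN null oocytes against 8.70 to 61.2 in SN Nlrp5 +/+ oocytes, a log2 fold change of 1.75, and -0.74 in NSN oocytes with every null oocyte below every Nlrp5 +/+ oocyte. The SN value exceeded the NSN value by 2.49 on the log2 scale, and this difference was not tested. Among 13185 genes past the filter at both stages, 3 lay on opposite sides in this way.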

How the results depend on the processing

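The counts of genes at least 2-fold higher and genes at least 2-fold lower were 688 and 818 with scaling by total count, 561 and 935 with TMM, and 458 and 703 with a pseudocount of 5. Without a filter beyond 1 count, 1965 genes were 2-fold higher and 2786 lower, with 570 separated upwards. With a mean of at least 100, the counts were 86 and 262, and 71 and 161 separated. Leaving out 1 oocyte gave 606 to 892 higher, 825 to 2018 lower, 329 to 838 separated upwards and 429 to 1641 downwards. The upper ends came without oocyte 31, where a single null oocyte stands for its genotype. Of the 315 and 415 separated genes, 231 and 324 stayed separated without oocyte 7, and 243 and 383 without oocyte 31. In a separated gene each null oocyte already lay beyond every Nlrp5 +/+ oocyte. Apart from rescaling, only the 2-fold cut could thus remove a gene, and these counts do not test the separation. Of 83 named genes at least 2-fold apart, 69 stayed so with either null oocyte left out. Many of the 83 were named for large differences in these same data. Without oocyte 7, 55 Zfp genes were 2-fold lower, and without oocyte 31, 95; for the chromosome 17 Zfp genes the range over oocytes left out was 11 to 18, for mitochondrially encoded genes 9 to 13. Of the 359 genes that the naming rule gave, the sign changed for 44 without oocyte 7 and for 23 without oocyte 31, among them Uhrf1, Dnmt3l, Kdm2b and Zfp57. Among those at least 2-fold apart it changed for 2: the log2 fold change of Tagln2 ranged from -0.46 to 3.18 and that of Hbb-bs from -3.85 to 2.55, the lowest without oocyte 7 and oocyte 31 respectively; the cause was not tested. No paired analysis was possible because the labels give oocytes no shared replicate numbers and name no animal.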
